A study of Mus musculus with 2 samples.

Results

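In long-read libraries of mouse hippocampus, 443 annotated genes held at least 20 reads each in both libraries that TALON, the authors' software for long reads, labelled Genomic. A read can carry this label when it lies in a gene and follows none of the gene's splice junctions, so it may be an unspliced precursor, a piece of one long exon, or a copy primed inside the transcript. The 443 genes were chosen by that count, out of 18497 annotated genes with a read in either library, of which 6419 had a Genomic read in both. Their counts and shares of Genomic reads are therefore given as a description, without a test. The tissue is labelled as a layer of hippocampus and came from female B6CASTF1/J mice, a first-generation cross of C57BL/6J and CAST/EiJ, at 2 months of age. There is 1 group of 2 libraries, replicates 1 and 2, each from 2 µg of RNA, and no treatment or genotype contrast. The labels do not say plainly that the replicates are separate animals. Every p-value below compares these libraries and measures only whether they differ by more than counting error. None measures the spread between libraries or animals.

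A messenger RNA is made as a long precursor from which introns are cut out, and its end is then cut and given a poly(A) tail, usually a short way after a hexamer such as AATAAA. The stretch after the stop codon, the 3' untranslated region (3' UTR), is often long in neurons and usually lies in the last exon, so a cDNA copy that stops within it crosses no junction. An oligo(dT) primer can also anneal to a run of A inside a transcript, which gives a cDNA whose end is not a cleavage site. Unspliced reads from a gene can thus come from several kinds of RNA or cDNA, and the position of the reads and the bases around their ends are what can be read from these files.

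Replicate 1 held 826596 reads that were not on spike-in RNAs and replicate 2 held 745492. Genomic reads numbered 76554 and 67668, or 9.26% and 9.08%. The 443 genes held 33920 and 29187 of them, which is 46.2% and 44.9% of the Genomic reads of annotated genes. Levels scaled to these totals are given as CPM, of which 1 read made 1.21 in replicate 1 and 1.34 in replicate 2. Neuronal and hippocampal markers were present at 1636 and 1666 CPM for Snap25 and 2219 and 2164 CPM for Hpca. Mbp of oligodendrocytes stood at 1601 and 1816 CPM, Gfap of astrocytes at 374 and 414, and Ttr of choroid plexus at 328 and 176, while the other choroid plexus markers Aqp1 and Otx2 had no read, which allows up to 3 reads in each library. The part of these other cells in the Genomic reads was not tested.

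The bases at the 3' ends of models are shown for 2 kinds of end, as chosen cases that do not cover all ends. The end of a model need not be where each of its reads stopped. In the first kind the last 30 bases of the leading end, the place in the gene where most of its Genomic reads ended, hold a poly(A) hexamer, shown in capitals. They belong to genes with many Genomic reads in or near last exons, and Gabarapl1, which held the most, is shown as a case without a hexamer. They were read from GENCODE M21 transcripts on mm10.
Apoe: ttgcttAATAAAgattctccgagcacattc
Ddn: gcccAATAAAtctactcgcccctttatgca
Nisch: tctattctAATAAAatggagtttgacacaa
Ndrg4: gcagaaaaactAATAAAgaaattaagtcta
Slc1a2: atcAATAAAtgtagattgcaatttctcttt
Syt1: actcAATAAAaatgttttatttcctgttga
Gabarapl1: cttaccttaaaagtctacctggactcagaa
Apoe ended at chr7:19696267-19696296 on the minus strand, Ddn at chr15:98803777-98803806 on the minus strand, and Ndrg4 at chr8:95714927-95714956 on the plus strand. The end of Gabarapl1, at chr6:129542317-129542346 on the plus strand, held neither AATAAA nor ATTAAA in its last 40 bases although it equals an annotated end. In the second kind the leading end was followed by a run of A. Below, 10 bases before the end are followed by 20 bases after it, and capitals mark runs of at least 6 A after the end.
Gm48091: cactcattcaAAAAAAAAAAAAAAAAAAAg
Glp2r: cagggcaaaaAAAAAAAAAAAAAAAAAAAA
Gm20659: attctgggccAAAAAAAAAAAAAAAAAAAA
Camk2b: aactgcaaatAAAAAAAAAAAAAAAAAAAA
Bace1: tttacagggcAAAAAAAAAAAAAAAAAAAg
Gm10684: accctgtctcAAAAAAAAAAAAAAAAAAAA
The Gm48091 window is chr9:28920384-28920413 and the Glp2r window chr11:67687112-67687141, both on the minus strand of mm10. The leading end of Camk2b equals an annotated end.

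Nearly all of these reads were unspliced, as the label says, but few of them lay in introns. Models with a single exon held 99.0% of the Genomic reads of the 443 genes in both libraries. By position of the model, with a class given when at least 90% of its bases fell there, 3' UTRs held 48.5% ± 1.19 (SD, n = 2), other exon sequence 24.4% ± 0.394, introns 8.52% ± 0.0877, and models that mixed exon and intron 6.56% ± 0.368. Models with over 10% of their bases outside the gene held 11.2% and 12.8%. The class of other exons includes models that cover both coding sequence and 3' UTR of 1 exon. Last exons alone held 73.6% and 70.9% of the reads. When only the base at the 3' end was placed, 75.7% and 75.1% of reads ended in a 3' UTR and 8.86% and 8.65% in an intron.

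**Figure D1:**
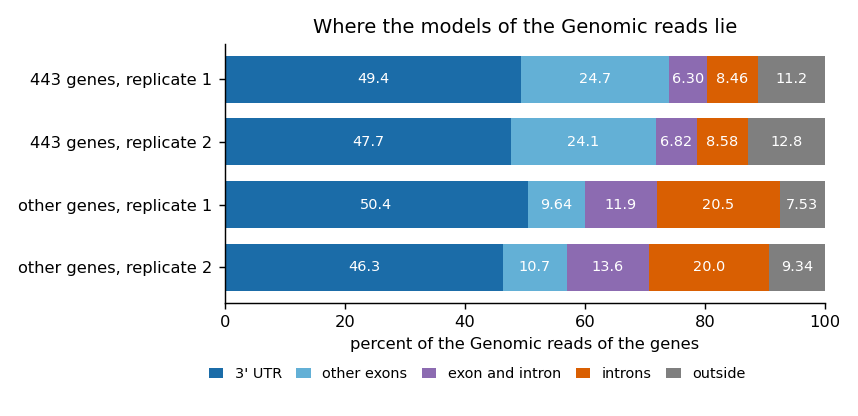
Percent of the Genomic reads (horizontal axis, stacked by colour) of the 443 genes and of all other annotated genes that fell in each position class, with 1 bar for each library. Introns held 8.46% and 8.58% in the 443 genes against 20.5% and 20.0% in other genes, and other exons 24.7% and 24.1% against 9.64% and 10.7%.

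The remaining annotated genes, which hold fewer Genomic reads each, had a larger intronic part. Introns held 20.3% ± 0.374 (SD, n = 2) of their Genomic reads, with 3' UTRs at 48.4% ± 2.92. In both libraries the intronic share of the 443 genes lay below that of the other genes, and the gap was wider than the difference between the libraries. No test was made of this gap. Other exons held 10.2% ± 0.760 there, and last exons 57.1% ± 2.22 against 72.2% ± 1.93 in the 443. Because a gene counts here by its reads, the leading genes weigh heavily. Without Gabarapl1 and Apoe the class of other exons in the set held 11.9% and 13.1%, close to that of the other genes. The 20 genes with the most Genomic reads held 37.1% and 34.4% of the reads of the set.

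A model is a coarse summary of the reads in it, which limits what its position shows. In each gene the leading model held a median 98.6% of the Genomic reads, so that most of its reads share 1 start and 1 end in the files. The 3' end equalled an annotated transcript end of the gene for 70.7% and 71.0% of the reads, and any annotated exon boundary for 78.7% and 77.9%. Models of 50 bases or less held 12.3% and 10.5% of the reads. The leading model of Pmm1, a phosphomannomutase, was 1 base long in both libraries, with 200 and 172 reads. That of Nisch was 329 bases long in replicate 1 and 1 base in replicate 2, with the same 3' end. The position class of the leading model was the same in both libraries in 362 of 443 genes, and the class of its 3' end in 403.

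**Figure D2:**
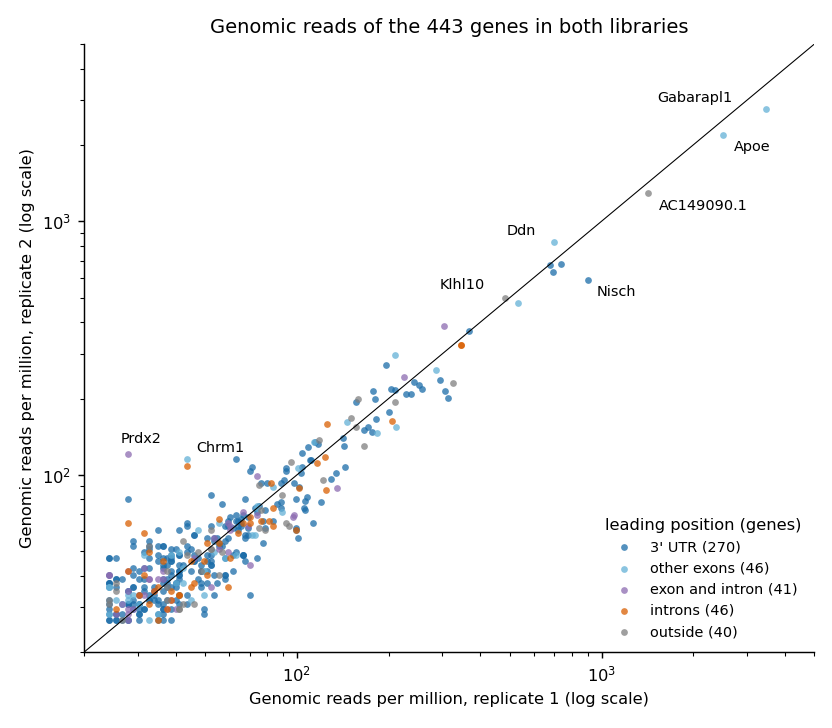
Genomic reads of the 443 genes in CPM, in replicate 1 (horizontal, log scale) and replicate 2 (vertical, log scale), coloured by the class that held most of the gene's Genomic reads, with the line of equal values. Gabarapl1 at 3467 and 2766 and Apoe at 2505 and 2195 lie highest, and Prdx2 and Chrm1 lie far above the line.

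Genes led by reads within exons that are not purely 3' UTR numbered 46, and they include the highest counts. Gabarapl1, an ATG8-family protein of autophagosomes, held 2866 and 2062 Genomic reads. These were 90.8% of all its reads in replicate 1 (exact 95% interval 89.7 to 91.8) and 89.3% in replicate 2 (88.0 to 90.5), in a single model of 1142 bases that ends at the annotated end. Only 288 and 246 reads of Gabarapl1 followed a full chain of splice junctions. Apoe, the lipid carrier secreted by astrocytes, held 2071 and 1636 Genomic reads, 48.2% and 46.2% of its reads, in a model of 354 bases. Apoe is thus split almost evenly between Genomic reads and the 2209 and 1892 fully spliced ones. Ddn, which encodes dendrin of dendrites and synapses, held 576 and 615 Genomic reads, 94.6% and 94.9%. Cck, the precursor of a neuropeptide, held 440 and 354, or 55.8% and 55.1%. In Ddn 33 reads in each library were fully spliced, and in Cck 349 and 288, and all remaining reads of both were Genomic. Slc25a4, the mitochondrial exchanger of ADP and ATP, had 236 and 193 Genomic reads, 20.6% and 20.1% of its total. The noncoding RNAs Meg3 and Miat have no coding sequence and hence no annotated 3' UTR. Meg3 held 174 and 222 Genomic reads, 44.1% and 62.4%, and Miat 94 and 100, 70.7% and 74.1%.

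Genes led by 3' UTR reads were the largest class, 270 of 443. Ywhaq, a 14-3-3 protein, held 607 and 504 Genomic reads, 59.3% and 60.3% of its reads. Nisch, which encodes the integrin-binding protein nischarin, held 746 and 437, 69.1% (interval 66.3 to 71.9) and 58.0% (54.3 to 61.5). The Nisch intervals do not overlap, and its share was lower in replicate 2. Ncdn, the neuronal protein neurochondrin, held 558 and 502 Genomic reads but only 17.1% and 17.0% of its reads were Genomic. So a gene can be in the set because it is abundant, as Ncdn is, or because most of its reads are Genomic. Esrra, an orphan nuclear receptor, held 244 and 176 Genomic reads, 94.6% and 95.1%, in a model of 73 bases that lies wholly in an exon of Trmt112 on the opposite strand. Tsc1, an inhibitor of mTOR signalling, held 212 and 163, 98.1% and 98.8%. Dkk3, a secreted protein of the Dickkopf family, held 303 and 276, or 53.2% and 53.3%. Cltb, a clathrin light chain, held 253 and 159, and Abhd17a, a depalmitoylase, 259 and 150, and in both the leading end differed by over 500 bases between the libraries.

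Lists of synaptic genes show which transcripts of neurons are in the set. Of the NMDA receptor list 4 of 7 genes had at least 20 reads in each library. Of these, 3 were among the 443, against 7.34% of all 6038 genes with that many reads. Genomic reads count towards these 20, so every member passes this filter, and Grin2a passes it only through them. List counts and median shares here and below are therefore a description and not a test. The median Genomic share over the 4 was 40.7% and 34.5%, and over all those genes 3.10% and 3.45%. Grin1 held 89 and 61 Genomic reads, 17.7% and 14.7% of its reads. Grin2b held 37 and 38, 63.8% and 54.3%, and Grin2a held 39 and 29, 100% and 96.7%. The obligate subunit Grin1 thus had 361 and 304 fully spliced reads, and Grin2a had none, which allows up to 3 in each library. Of 18 vesicle release genes with that many reads, 9 were in the set, among them Cplx1 (complexin 1) with 117 and 104 Genomic reads, Syt1 (the calcium sensor synaptotagmin 1) with 86 and 91, and Vamp2 with 81 and 69. The share was 52.4% and 55.5% in Syt1 and 7.52% and 7.94% in Vamp2. In Cplx1 it was 27.5% and 28.8%, between the 2. The median over the 18 was 7.56% and 7.13%. Bsn, the active zone scaffold bassoon, held 73 and 58 Genomic reads, 72.3% and 61.1%, with 1 fully spliced read in each library.

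Other lists of neuronal genes had 6 of 14 postsynaptic scaffold genes in the set, 5 of 10 adhesion molecules with long genes, 4 of 8 potassium channels, 6 of 15 neuronal RNA-binding proteins and 2 of 5 AMPA and kainate receptors. The median Genomic shares in these lists were 7.93% and 11.7% for the scaffolds, 25.4% and 29.6% for the adhesion molecules, 36.3% and 38.3% for the potassium channels, 31.9% and 9.51% for the RNA-binding proteins, and 2.86% and 6.96% for the AMPA and kainate receptors. The median of the RNA-binding proteins differed widely between the libraries. Shank1 held 54 and 50 Genomic reads, 81.8% and 82.0%, and Shank3 38 and 35, 52.8% and 56.5%, both scaffolds beneath glutamate receptors. Cntnap2, an adhesion protein of axons, held 55 and 36, 94.8% and 85.7%, and Nrxn2, a presynaptic neurexin, 83 and 79, 86.5% and 88.8%. Fully spliced reads were few in all 4, with 11 and 7 in Nrxn2, 3 and 4 in Shank1, and 1 and 0 in both Shank3 and Cntnap2. Kcnab2, a beta subunit of voltage-gated potassium channels, held 84 and 67, 22.3% and 21.5%, and Gria1, an AMPA receptor subunit, 61 and 74, 12.8% and 16.6%. Elavl3, a neuronal RNA-binding protein, held 36 and 37, 85.7% and 86.0%. Map1b, a microtubule-associated protein, held 30 and 32, 85.7% and 76.2%, with 1 and 2 fully spliced reads. Camk2b, a CaMKII subunit, held 162 and 202 Genomic reads, 16.5% and 19.2%, ending before the run of 20 A shown above.

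The remaining neuronal lists had 4 of 9 long noncoding RNAs in the set, 4 of 16 genes of microtubules and cytoskeleton, 3 of 12 of CaMK and calcineurin, 1 of 8 GABA-A receptor genes and 1 of 3 sodium and calcium channels. Beside the 7.34% over all genes these are 44.4%, 25%, 25%, 12.5% and 33.3%, on few genes each. The last is Scn8a, a sodium channel of axons, with 55 and 36 Genomic reads beside 65 and 90 fully spliced ones. Of the housekeeping lists, none of 19 ribosomal protein genes and 1 of 18 genes of oxidative phosphorylation, 5.56%, was in the set, near the 7.34% over all genes. That gene, Sdha of succinate dehydrogenase, held 34 and 30 Genomic reads, 8.81% and 9.04%. None of 7 immediate early genes, 9 circadian and steroid response genes or 2 metabotropic glutamate receptors with enough reads was a member. Among glial genes, Slc1a2, the glutamate transporter of astrocytes, held 147 and 160 Genomic reads, 68.4% and 72.1%, and with Apoe made up the 2 members of an astrocyte list of 19. Mbp, a protein of compact myelin, was the only member of 9 myelin genes, with 186 and 181 Genomic reads, 14.1% and 13.4%. Of 25 splicing factors chosen for introns known to be detained in the nucleus, 3 were members, and their leading ends lay in 3' UTRs. Of these, Snrnp70 held 61 and 55 Genomic reads, 67.0% and 67.1% and Ddx5 48 and 35, 7.55% and 5.50%. The astrocyte list had 10.5%, the myelin list 11.1% and the splicing factors 12% of their genes in the set, near the overall share. The count threshold favours genes with many reads, and the list counts were not adjusted for that. The median Genomic share was 0% in both libraries for ribosomal proteins and 4.26% and 3.13% for the splicing factors.

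**Figure D3:**
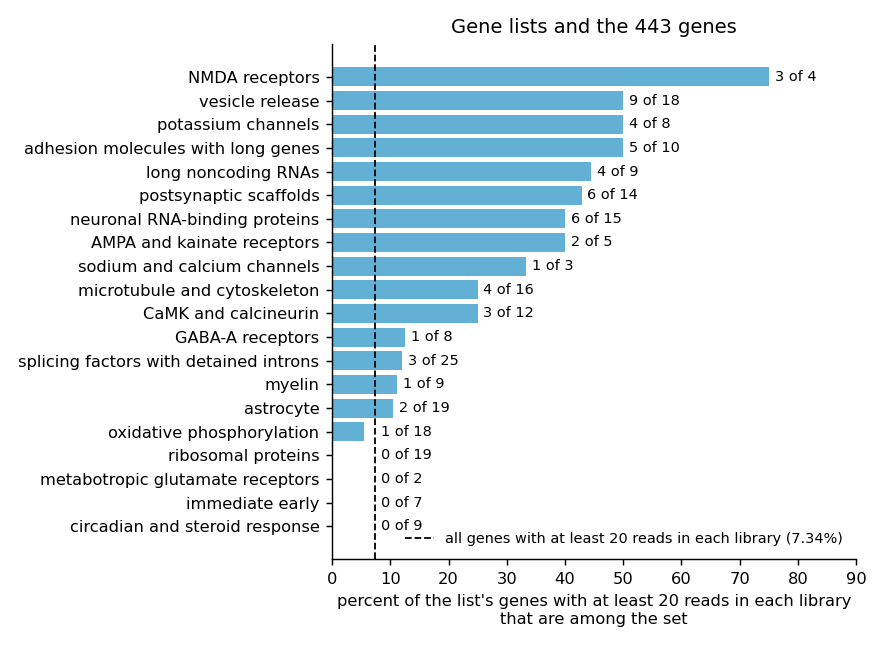
Percent of each list's genes with at least 20 reads in each library that are among the 443 (bars, with counts), and the 7.34% over all such genes (dashed line). NMDA receptors stand at 3 of 4 and ribosomal proteins at 0 of 19. Genomic reads count towards the 20, so every member passes that filter.

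The annotated structure of the 443 genes differed from that of the 5595 other genes with at least 20 reads in each library. Genomic reads count towards these 20, so every member passes this filter by the rule that chose it. The other genes need reads outside Genomic models in at least 1 library to pass. The medians below are therefore a description and not a test. Among protein-coding genes the median 3' UTR covered 2180 bases against 1219, and the median longest last exon 2558 bases against 1814. The genes were longer in other ways too, with a median span of 32716 bases against 23298 and 5397 exonic bases against 4415. Members led by 3' UTR reads had a median of 2504 bases of 3' UTR and those led by other exons 1064. The median level of fully spliced reads was alike, 53.2 and 55.0 CPM in members and 50.8 and 51.0 in the others. By leading class it ran from 6.65 and 10.1 CPM for models outside the gene to 123 and 114 for exon and intron. Over 5928 protein-coding genes with at least 20 reads in each library, 3' UTR length and Genomic share had a Spearman rho of 0.36 in replicate 1 and 0.36 in replicate 2, and gene span and Genomic share 0.27 and 0.26. Between fully spliced reads, which are part of the denominator of the share, and Genomic share rho was -0.27 and -0.26. These are descriptions across genes of the same 2 libraries, and genes are not replicates. Partial models that match only the 3' part of a splice chain, which were not used to choose the genes, held a median 7.14% and 6.51% of the reads outside Genomic models in 358 members against 4.76% and 4.88% in 5528 other genes.

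The Genomic share of a gene's reads ran from 1.06% to 100%, with a median over the 443 genes of 45.7% in replicate 1 and 45.9% in replicate 2. Over all genes with at least 20 reads in each library it was 3.10% and 3.45%. In 184 genes the share was over 50% in both libraries, in 50 over 90%, and in 33 under 10%. No fully spliced read was seen for 29 genes. The lowest shares belonged to abundant transcripts. Cpe, carboxypeptidase E of secretory granules, held 34 and 23 Genomic reads of 2879 and 2440, and Olfm1, a secreted olfactomedin, 28 and 26 of 1490 and 1439. Nrgn, a calmodulin-binding protein of dendrites, held 48 and 35 of 1452 and 1306. The median share was 77.5% in genes led by introns, 70.7% in those led by models outside the gene, 48.4% for other exons, 43.2% for 3' UTRs and 20.0% for models of exon and intron.

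**Figure D4:**
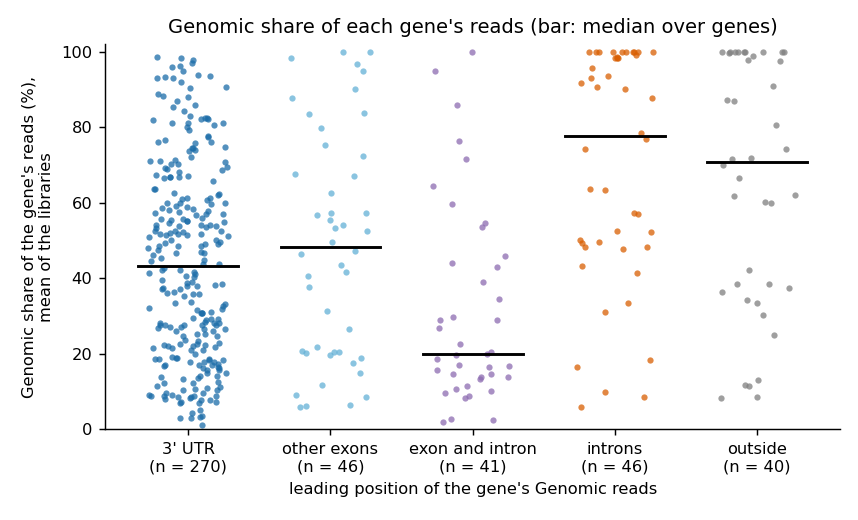
Genomic share of the reads of each gene (vertical axis, percent, mean of the libraries) by the class that held most of its Genomic reads, 1 point per gene, with the median as a bar. The medians run from 20.0% for models of exon and intron to 77.5% for introns, and each class spreads over most of the range.

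At the threshold, 33 members had a lowest count of exactly 20, among them Hspa9 with 20 and 20, Nacc2 with 20 and 20, and Akap11 with 20 and 21. Just outside were 37 genes with a lowest count of 19, such as Fads2, Napg and Pla2g3, each with 19 and 19. The total reads of these 37 genes run from 20 and 21 in Nova2 to 572 and 480 in Apbb1, so the threshold falls at very different shares of a gene's reads.

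Models that joined exon and intron led in 41 genes, and unspliced models that contain a whole intron were also found in genes led by other classes. The leading model of Ndrg4, a cytoplasmic protein of neurons, covered intron 14 of 14, chr8:95712364-95713177, which is 814 bases long. Such models held 250 and 286 reads, beside 1287 and 1257 reads that splice this intron out. In Cfl1 (cofilin, an actin-severing protein) models over the last intron of 149 bases held 174 and 112 reads, against 553 and 579 spliced over it. Spliced reads were thus the larger number in both genes. In Mfsd5, with 1 intron of 547 bases, the order was the other way, with 81 and 52 reads in unspliced models and 41 and 30 spliced. Dnajc5, the cysteine-string protein of synaptic vesicles, had 36 and 37 reads in models over an intron of 146 bases, the only one of an annotated transcript, against 5 and 10 spliced. Ppp3ca, the calcineurin catalytic subunit, had 35 and 18 reads over its last intron of 2988 bases, against 955 and 909. In Hnrnpa2b1, which binds nuclear RNA, such models held 91 reads in replicate 1 and 1 in replicate 2, while spliced reads over the intron were 62 and 55.

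Whole annotated introns lay inside Genomic models of 34 members in both libraries, counting introns that other reads of the gene splice out. In 23 of the 34 the intron with the most such reads was the last one of its transcript. Some of these transcripts, as in Mfsd5 and Dnajc5, have 1 intron, which is last by definition. In others, such as Lsr and Rere, several introns tied on these reads. The 34 also include Arl8a and Tk2, with 1 such read in each library. Whether last introns are favoured was therefore not tested. Models that span a whole intron held 11.3% and 7.76% of the Genomic reads of the 443 genes, and 9.11% and 12.6% of those of other genes. In the 443 genes 1 gene decides the gap between the libraries, since the models of AC149090.1 contained introns in replicate 1, with 1174 reads, and none in replicate 2. Without it the values were 8.11% and 8.03%. Since a model has 1 start for many reads, a read in a model that spans an intron need not span it itself, so these are upper counts of intron-containing reads.

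**Figure D5:**
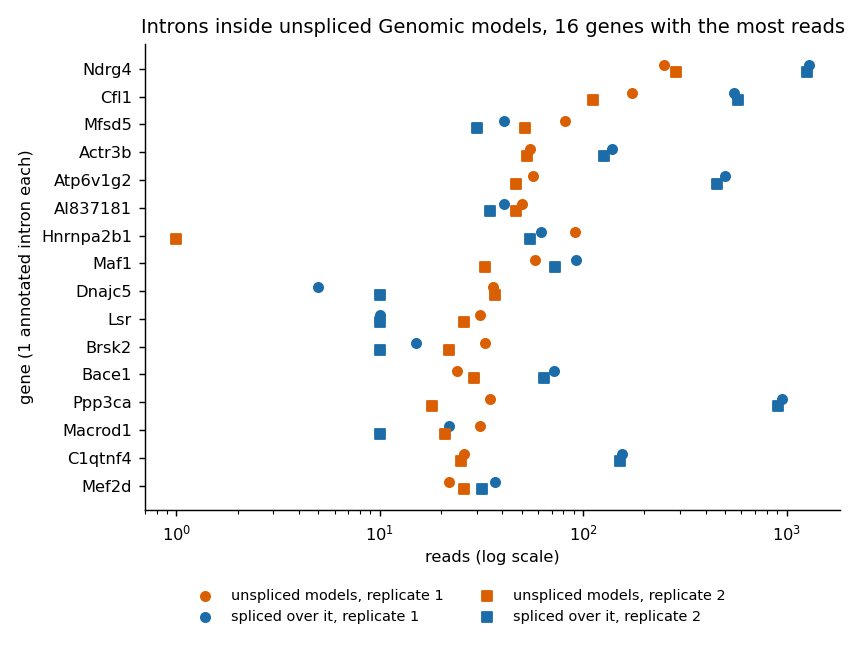
Reads (horizontal axis, log scale) in unspliced Genomic models that contain an annotated intron (orange) and reads that splice the same intron out (blue), for 16 genes and 1 intron each, with circles for replicate 1 and squares for replicate 2. Ndrg4 has 250 and 286 unspliced against 1287 and 1257 spliced, and Hnrnpa2b1 has 91 and 1 against 62 and 55.

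Introns led in 46 genes, and these were long, with a median span of 107224 bases against 32716 in all members. Their leading model lay inside a single annotated intron in 34 genes, a first intron in 8 and a last intron in 8. These introns had a median length of 32267 bases. Introns of these loci, here and below, are numbered along 1 annotated transcript of the gene. In many genes that transcript had no read, as in Nckap5, and in Chd9 it had 1, so the numbers hold for that transcript only. In several of these genes a short model lay at the same place in both libraries. Cplane1, a ciliogenesis gene, held 96 and 83 Genomic reads, of which 95 and 81 were in a model of 179 bases with identical ends in both libraries, chr15:8184722-8184900, in intron 10 of 52. Its fully spliced reads were 1 and 5. Chd9, a chromatin remodeller, held 104 and 118 Genomic reads, 84.6% and 90.8%, with leading models of 231 and 262 bases that share their 3' end in intron 2 of 2 and hold 63 and 70 of the reads. Cbwd1 held 84 and 66 in models of 234 and 231 bases in intron 6 of 14, and Nckap5 69 and 55 in models of 89 and 90 bases in a first intron of 134502 bases. Of the 31 members led by introns whose leading end was off every annotated exon boundary in both libraries, 17 had identical ends and 27 ends within 50 bases.

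In some of these loci the intron of the gene contains an exon of another gene. Gm48091, an antisense RNA gene, held 286 and 243 reads, all Genomic, in models inside its first intron, the leading one of which lies fully within an exon of Opcml on the other strand. Glp2r, the receptor for a gut hormone, held 285 and 243 Genomic reads, 99.0% and 99.2%, in intron 8 of 9, within an exon of Gas7 on the other strand, and 2 fully spliced reads in each library. Both ended before the runs of A printed above. Gm49450 held 68 and 69 reads and Gm45692 103 and 65, all Genomic, in places that are exons of Tuba1a and Rnf170 on the same strand, so these reads cannot be told apart from reads of those genes. Gm20388, with an annotated intron of 4384418 bases, held 170 and 122 Genomic reads spread over many models, the leading one with 14.7% and 13.9% of them. This gene thus has no single place where its Genomic reads lie.

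Over the whole set, 6.99% and 8.05% of Genomic reads were in models with at least 90% of their bases in exons of a gene on the opposite strand, against 3.22% and 2.81% in other genes, and the leading model was of this kind in both libraries in 28 members. Some of these are abundant genes with an annotated neighbour at their 3' end. Atp1b1, a subunit of the sodium pump, held 149 and 148 Genomic reads beside 992 and 788 fully spliced ones, in a model of 617 bases within an exon of Nme7. Nme7 had 11 fully spliced reads over both libraries. Tubb4b, a tubulin, held 119 and 80 within an exon of Fam166a, which had no fully spliced read. In Txndc11, with 56 and 43 Genomic reads in a model of 75 bases, the neighbour Snn had more fully spliced reads, 132 over both libraries, than the 19 and 13 of Txndc11. How the authors set the strand of an unspliced read is not given in those files or labels.

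Models that reached outside the annotated gene led in 40 genes, and 89.5% and 89.2% of the reads of this class ended over 50 bases past the annotated 3' end. Without AC149090.1 and Klhl10 this class held 6.87% and 8.62% of the Genomic reads of the set. AC149090.1, on the unplaced sequence JH584304.1, held 1175 and 961 Genomic reads, 69.2% and 63.6%, in models that end 1314 bases beyond the gene. Klhl10, a ubiquitin-ligase adaptor known from testis, held 398 and 370 Genomic reads and 1 and 0 others, in models that run 4648 bases past its annotated end to chr11:100461670. No read in replicate 2 followed the splice chain of Klhl10. Nnat, an imprinted gene of neurons, held 137 and 97 in a model that ended 3069 bases past the gene, with 65.2% and 58.8% of its reads. Nptx1, a neuronal pentraxin, held 98 and 102, ending 1073 and 676 bases past its end. Gm44151, annotated as antisense, held 269 and 172 and ended 626 bases past the gene. The leading ends of these 5 genes were identical between libraries except in Nptx1, where they lay 397 bases apart.

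The leading 3' end, with ends within 50 bases joined, was within 50 bases in both libraries in 360 of 443 genes and identical in 319. Since ends often equal annotated ones, this also holds for ends taken from the annotation. In the 71 genes whose leading end was off every exon boundary in both libraries, 32 were identical and 53 lay within 50 bases. The leading ends that differed most were those of Anks1b, by 1094729 bases, Dlgap1, by 651886, and Rbfox1, by 372655. In each of these 3 genes the leading end lay in an intron in 1 library and in or beyond a 3' UTR in the other.

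Hexamers stood before most leading ends. The 40 bases before the leading end of replicate 1 could be read from an annotated exon in 380 genes, and 296 of these, 77.9%, held AATAAA or ATTAAA. By class these were 225 of 264 genes led by 3' UTRs, 28 of 42 led by other exons, 28 of 38 led by exon and intron, 7 of 16 led by introns and 8 of 20 led by models outside the gene. By reads, the hexamers stood before 70.8% and 72.0% of readable Genomic ends of the set and 76.2% and 75.9% of those of other genes. For annotated models of the same genes, with ends taken from the annotation and not from reads, the part was 79.1% and 79.2%. The search was on the strand of the gene only, and 2.79% of all windows of 40 bases in annotated exons held one. At ends equal to an annotated end the part was 77.6% and 79.0%, and at other ends 35.5% and 30.4%. Without Gabarapl1, whose end holds neither, the part over all readable ends of the set was 78.7% in both libraries, above that of other genes instead of below it. Of the readable intronic reads that did not end at an annotated end, 18.6% and 17.2% had a hexamer, and few genes carry this value. It was 41.1% and 42.0% without Gm48091 and Glp2r, whose leading ends hold none, and 2.87% and 1.46% without Gm45692 and Gm49450, whose reads lie in exons of other genes on the same strand.

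A-rich sequence, at least 12 A in the 20 bases after the end, followed 12.7% and 17.9% of the Genomic reads of the set whose end could be read (15.3% ± 3.65, SD, n = 2). Only 29.7% and 30.1% of the reads were readable in this way, because the bases must lie in an annotated exon of either strand. Other genes had 14.7% and 14.3%, and annotated models of the same genes 15.1% and 15.6%. The set differed from both by less than the spread between its libraries. The ends of annotated models were taken from the annotation and not from reads, and 22.7% and 23.1% of their reads were readable. How often fully spliced reads ended before such sequence is therefore not shown. Windows of 20 bases in annotated exons held that much A in 1.08% of cases. Gm48091 and Glp2r hold much of the A-rich part of the set, and without them it was 7.52% and 13.1%. At ends that are not annotated ends the part was 18.7% and 22.6%, or 8.80% and 12.5% without these genes. At annotated ends it was 6.29% and 13.6%, or 3.05% and 9.72% without Camk2b. Of the readable intronic ends, 68.1% and 69.0% were A-rich, but the readable reads came from 37 genes and the A-rich ones mostly from Gm48091 and Glp2r, whose runs of A are printed above. Without them it was 22.0% and 21.4%. The leading end was readable in both libraries in 110 genes and A-rich in both in 14. Ends in introns without any exon over them could not be read, so these values say nothing of most intronic loci.

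Reads outside Genomic models, which the choice of genes did not use, were compared between the libraries with a two-sided exact binomial test over all 8306 genes with at least 20 such reads, with Benjamini-Hochberg adjustment and a 2-fold limit. Of 367 members tested, 0 were higher in replicate 2 and 1 was lower, against 0.385% higher and 0.325% lower among all genes tested. At an unadjusted p under 0.05, 49 of the 367 members and 746 of all 8306 genes passed, a larger part in members. A gene with more reads passes more readily, and these parts were not adjusted for read number. No test was made of this difference. The median log2 ratio of replicate 2 to replicate 1 was 0.01 in members and 0.00 over all genes. The 76 members not tested had too few reads outside Genomic models.

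The 1 member called was Chrm1, the muscarinic receptor M1 of pyramidal neurons. It had 112 reads outside Genomic models in replicate 1 and 40 in replicate 2, a log2 ratio of -1.33 (adjusted p = 3.13e-05, exact binomial test with Benjamini-Hochberg adjustment). Its fully spliced reads were 45 and 40, and its partial (incomplete splice match) reads 67 and 0, of which 66 and 0 were single-exon, while its Genomic reads were 36 and 86. Genomic and partial reads together made up 69.6% and 68.3% of its reads. The fully spliced reads were close in number, and the sum of Genomic and partial reads kept its share while the split between them changed. The place of the Genomic reads also changed, with 35 of 36 in a model that ran beyond the gene in replicate 1 and a leading model inside it in replicate 2. Prdx2, a peroxide-reducing enzyme, had 84 and 0 single-exon partial reads, 23 and 90 Genomic reads, and 205 and 183 fully spliced ones. Rbfox1, a neuronal splicing regulator, had 34 and 0 single-exon partial reads and 36 and 81 Genomic reads.

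The Genomic share itself was close between libraries in most genes. It differed by a median of 3.43 percentage points, by under 5 points in 284 genes, and by over 20 points in 7. The 7 were Chrm1, Rbfox1, Prdx2, Ajm1, Apc2, Nacc1 and Clcn6, all with a higher Genomic share in replicate 2. In Chrm1, Rbfox1 and Prdx2 the sum of Genomic and partial shares changed by -1.34, -2.51 and -1.05 points. In Ajm1, by contrast, fully spliced reads fell from 56 to 33 while Genomic reads were 52 and 86, and in Nacc1 fully spliced reads were 42 and 20 and Genomic reads 29 and 34. Whether the label of a single-exon read was set by the same rule in both libraries was not tested.

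The intronic share of Genomic reads was compared between the libraries with Fisher's exact test in 2685 genes with at least 10 Genomic reads together. All reads of a model share its class, so they are not independent, and the p-values overstate the evidence. Where 1 model holds most reads of a gene, a call rests mainly on where that model starts and ends. Of the 443 members 9 were called at an adjusted p under 0.05, 2.03%, against 1.15% of all genes tested. Members have at least 20 Genomic reads in each library, while the test needed only 10 together. A difference is thus more readily called in members, and these percentages were not adjusted for that. The intronic share was higher in replicate 2 in 5 of the 9 genes and lower in 4. Ctnnbl1, a component of spliceosome-associated complexes, went from 2 of 46 reads to 40 of 40 (Fisher's exact test, adjusted p = 4.28e-19), and Pcbp2, a poly(C)-binding protein, from 0 of 24 to 21 of 24 (adjusted p = 1.22e-07). In Rbfox1 intronic reads were 36 of 36 and 43 of 81 (Fisher's exact test, adjusted p = 9.16e-06), so their number did not fall while other Genomic reads were added. Single-exon partial reads of Rbfox1, given above, were seen in replicate 1 only. Whether these changes are linked was not tested. The 3' end of Pcbp2 was the same in both libraries, and only the start of its model differed. In 2 of the 9 genes the leading ends lay within 50 bases, so that a change of class there came with the same 3' end.

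Most members were protein-coding, 421 of 443, against 5507 of the 5595 other genes with at least 20 reads in each library. Genomic reads count towards these 20, so a gene with only Genomic reads passes as a member and cannot be among the others. The counts by gene type are therefore a description and not a test. Antisense genes numbered 12 in the set and 4 among the others, and lincRNA genes 7 and 10. Several had all of their reads in Genomic models. Gm43126 held 101 and 71 reads in a model that lies within an exon of Ccnd2, a cyclin of the G1 phase, on the opposite strand. Gm20659 held 65 and 45 within an exon of the phosphatase gene Dusp3, and Gm37401 63 and 49 within an exon of the small GTPase gene Rhoa. The leading models of Gm43126 and Gm20659 also reached beyond the annotated antisense gene. Gm26724 held 79 and 84 and 2310075C17Rik 78 and 47, also all Genomic. Xist, the noncoding RNA of the inactive X chromosome, held 29 and 21 Genomic reads, 96.7% and 100%. Rian, an imprinted noncoding RNA, held 39 and 45 Genomic reads, 97.5% and 95.7%.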

How the data were processed

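Long reads of cDNA from 2 hippocampus libraries were assigned by the authors to transcript models with TALON, per the file headers, on mm10 with GENCODE M21 annotation, per the text files deposited with them. The deposited values are whole-number read counts per model, not normalized, and the other deposited values are the exon number, length and coordinates of each model. Aligner and versions are not named in the labels or files. Counts were summed by gene identifier. Totals outside spike-ins were 826596 and 745492 reads, so 1 read was 1.21 and 1.34 CPM.

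Each Genomic model was placed on the exons, introns and 3' UTRs of all annotated transcripts of its gene on the same strand, and a class needed 90% of its bases. Leading ends joined 3' ends within 50 bases. No genome was used here, so bases around an end were read from annotated exons of either strand. Shares of single libraries have exact 95% Clopper-Pearson intervals. Intervals, the limit of 3 counts for a count of 0 and the exact tests cover counting error only, since reads without molecular identifiers may not be independent.

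Members, gene lists and named genes were chosen with earlier results of these data known. The genes named are the 20 with the most Genomic reads, the 10 highest and 5 lowest shares, the 5 leading genes of each position class, the 3 leading members of each list, the largest called library differences and genes at the threshold, and others were named after their values were seen. Some genes that the rule names are not reported here. The binomial and Fisher's tests were tested on simulated data with reads drawn independently, which does not cover reads that share the class of a model. Alternatives changed thresholds, classes, denominators and scaling (totals, or TMM from edgeR). The work ran in Python 3.11.15 (scipy 1.17.1, numpy 2.4.6, pandas 2.3.3), with the scaling factors from edgeR 4.0.16 under R 4.3.3.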

Additional observations from a re-analysis of the deposited data

Results flagged for a closer look

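Genomic reads also occurred in genes that the annotation does not hold, which none of the comparisons above uses. They numbered 3107 in replicate 1 and 2632 in replicate 2, above the 3 reads that a count of 0 allows, in 895 and 849 models.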

How the results depend on the processing

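No paired analysis was possible because there is 1 group of libraries. The number of genes depends on the threshold, with 961 at 10 Genomic reads and 115 at 50, and 577 to 626 when the threshold was applied in 1 library. The median Genomic share of 47.2% (mean of the libraries) became 52.4% over Genomic and fully spliced reads and 46.2% with single-exon models, and ran from 45.7% to 45.9% in single libraries. The intronic share of 8.52% became 12.3% with a class at 50% of the bases and 12.1% on exons of annotated models with reads. Chosen after seeing the data, it was 8.72% without annotated retained-intron transcripts, 8.75% by the base at the 3' end, 9.27% without models of 50 bases or less, 9.86% without Gabarapl1 and Apoe, and 11.2% with genes weighted equally. The 3' UTR share of 48.5% became 67.7% at 50% of the bases and 44.9% on exons of models with reads, and by the later choices 75.4% by the base at the 3' end, 43.3% without short models, 56.2% without the 2 leading genes and 59.8% with equal weights. Of 8306 genes tested in reads outside Genomic models, 32 were called higher and 27 lower. Removing the fold limit gave 49 and 54, with 2 and 5 of the 367 members tested. The genes called in intronic share were 31 of 2685 tested, among them 9 of the 443 members. They became 18 with at least 40 reads, 9 of them members. With a class at 50% of the bases they were 79, 22 of them members. By the base at the 3' end, chosen after seeing the data, they were 13, 6 of them members. The A-rich share of 15.3% became 10.3% without Gm48091 and Glp2r, also chosen after seeing the data. The cause of these changes was not tested. Positions rest on models and not on reads, ends in introns mostly had no readable sequence, and depth sets which genes reach 20 reads.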
